A study of Mus musculus with 32 samples.

Results

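Promoter CTCF peaks lost without zinc finger 8 are peaks of a CTCF ChIP-seq list from mouse embryonic stem (ES) cells. They had no counterpart in the list from cells that expressed CTCF without this finger. A GC peak was taken as a promoter peak where its centre lay within 1 kb of the annotated start of a gene in the expression table, and as lost where it shared no base with any Del8 peak. By this rule 1035 of the 26729 GC peaks were lost promoter peaks, and they lay at the starts of 1096 of 24940 genes. A further 1307 promoter peaks did overlap a Del8 peak and are called retained, so that 44.2% of the 2342 promoter peaks were lost. Of the peaks farther from any start, 59.4% were lost. The members were chosen by the measured overlap of the GC and Del8 peaks, so all peak values are given as a description, without a test.

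All cells were ES cells of strain 129. Those labelled d8 in RNA-seq and Del8 in ChIP-seq expressed a fusion of green fluorescent protein to CTCF without zinc finger 8 (GFP-CTCF-Del8), and those labelled GC expressed the full GFP-CTCF fusion, so the tag was shared by both genotypes. RNA-seq covered 3 d8 lines with 8 libraries and 2 GC lines with 6 libraries, and the line was taken as the independent unit. ChIP-seq with a home-made CTCF antibody gave 1 Del8 and 1 GC library, so peak losses have no replicate check, and the labels do not say from which lines these libraries came. The labels do not say how the lines were derived or what remained of untagged Ctcf. The Del8 list was called from 5.59 M tags and the GC list from 8.09 M tags, with thresholds of 14.3 and 11.1 tags per peak when scaled to 10 M tags. A GC peak near the threshold could therefore be missing from the Del8 list through depth and threshold, and that part was not tested. RNA-seq libraries held about 14.3 to 16.7 M reads. All 6 ES cell markers examined were above 1 RPKM (reads per kilobase of exon per M reads) in every library. Nanog, one of them, stood at 38.9 to 74.3 RPKM in d8 and 89.0 to 191 RPKM in GC libraries, which do not overlap, and the other 5 overlapped.

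CTCF is a DNA-binding protein that reads its sites with an array of zinc fingers and, with the cohesin complex, forms the ends of chromatin loops. The central fingers contact the core of the binding site, and the outer fingers contact flanking bases. Besides sites between genes, CTCF occupies many promoters, where it is known to bear on enhancer contacts and on the choice of start site. The comparisons addressed which genes start at peaks lost without zinc finger 8, and how these genes were expressed in d8 and GC lines.

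The sequences below show the letters nearest to the CTCF core at promoter peaks that the results turn on. The core was searched on both strands as CCANNAG and AGNNGGC sharing their AG, which gives 12 positions with 8 fixed letters, in RefSeq promoter windows of 300 bases (GRCm38.p6, the build mm10) that reach from 250 bases before a start to 50 after it. For each peak the stretch with the fewest mismatches inside the peak is printed, or the first found where several tied. It is given 5′ to 3′ on the strand of the match, with the core in capitals and 9 flanking bases on each side. The first set comes from lost peaks at genes that were lower in d8 (Comtd1 to Rpl27), at Mthfd1l, which was higher, and at lost peaks very near to (Dnlz) or far from (Rpgr) a Del8 peak.
Comtd1, chr14:21849038-21849067, plus strand: aacatctcgCCACCCGGTGGCtgcatgcgg
Fam241b, chr10:62111059-62111088, minus strand: gcagttaccCCGGCAGCCGGCagagggggc
Ocrl, chrX:47912363-47912392, plus strand: gctgcagttCCCCAGGTTGGCcgcaggggg
Tex261, chr6:83775794-83775823, plus strand: ctgtccccgCCCAGAGGACGCcgagaggag
B3glct, chr5:149678115-149678144, plus strand: gtcagatgcCCAGAGGAGGGCgcggtccag
Peg12, chr7:62464685-62464714, plus strand: acttacgggCCACCAGAAGGCagacgatgc
Rpl27, chr11:101442119-101442148, minus strand: cctactctgCCACTAGGAGGAggacagagt
Mthfd1l, chr10:3973076-3973105, minus strand: gaactgaggCCCCTAGGGGGCactgtacca
Dnlz, chr2:26352137-26352166, minus strand: agcggggcgACACCAGGGGGCaacagaaag
Rpgr, chrX:10216853-10216882, plus strand: accgcacacCCTCTAGCGGTCgcgattgga
The second set comes from retained promoter peaks early in the GC list, at positions 9, 15 and 23, so the sets are not matched in list position. The stretches at the retained peaks of Atp5g2 and Bptf, at positions 25 and 28, had 1 and 2 mismatches and are not shown.
Nipsnap2, chr5:129724954-129724983, minus strand: tcagtgctgCCGCCAGGGGGCgtgccaaga
Vps36, chr8:22192746-22192775, plus strand: gagtggcagCCGCCAGGGGGCgccgcctgt
Homer3, chr8:70282954-70282983, plus strand: cgtagctggCCAGCAGGGGGCgctgggcag
Of the lost peaks shown, only that of Peg12 held all 8 fixed letters, as did that of Homer3 among the retained ones. With positions counted from 1 at the 5′ end of the core, the stretch at Comtd1 differed by A6C, that at Fam241b by A3G and that at Dnlz by C1A.

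Across the whole list, the share of windows with the core was lower at lost than at retained promoter peaks and higher than over promoters at large, a difference that was not tested. A window was available for 279 lost and 555 retained peaks, with the peak centre inside it. Where a centre lay in more than 1 window, the window with the fewest mismatches was kept. Promoters at large had no such choice, which can widen their contrast with the peaks by an amount that was not measured. A full match was present in 11.5% of the windows at lost peaks, in 19.5% of those at retained peaks and in 2.43% of all 32817 promoter windows searched. Allowing 1 mismatch, the shares were 63.4%, 75.5% and 30.6%. Windows at lost and retained peaks were alike in base composition, with median G+C contents of 61.7% and 62.3%, against 52.7% over all windows. Their CpG dinucleotides stood at a median of 0.724 and 0.791 of the number expected from base composition, against 0.383 over all windows. When the GC list was divided into 5 equal parts, then in the first part a full match was held by 4 of 44 windows at lost peaks and 77 of 361 at retained peaks, and in the second part by 10 of 45 and 20 of 99. In the later parts it was held by 6 of 51 and 8 of 53, by 9 of 72 and 2 of 31, and by 3 of 67 and 1 of 11, so the share was not lower at lost peaks in every part, and lost peaks lie later in the list. These shares are a description of letters, and a window without a match says only that these letters are not in it.

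For Ocrl and Peg12 the stretch of the lost peak that lies within the window and before the RefSeq start is shown on the gene's strand, since both genes stood far lower in d8 and neither peak had a Del8 peak within 50000 bp. Capitals mark the core stretch with the fewest mismatches, or the first found where several tied, read here on the strand of the gene. At Ocrl the marked stretch has 2 mismatches, and a stretch that overlaps its 3′ end has as many.
Ocrl, chrX:47912282-47912417, plus strand: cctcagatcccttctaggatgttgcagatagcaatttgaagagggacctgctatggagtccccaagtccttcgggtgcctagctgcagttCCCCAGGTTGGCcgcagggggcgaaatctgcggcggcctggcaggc
Peg12, chr7:62464575-62464760, minus strand: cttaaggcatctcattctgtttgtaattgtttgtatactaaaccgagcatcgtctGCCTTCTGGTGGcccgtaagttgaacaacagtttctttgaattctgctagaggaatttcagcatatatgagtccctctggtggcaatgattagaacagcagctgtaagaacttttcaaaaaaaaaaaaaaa

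Lost promoter peaks lay late in the GC peak list. Their positions ran from 119 to 26723 of 26729, with a median of 17315, while retained promoter peaks had a median position of 4355. Every score in the deposited lists is 1, so the position was the only order available. That it follows peak strength is an assumption that the files do not state. The list was divided by position into 5 equal parts. The lost share of promoter peaks was 13.4% in the first part (111 of 830), then 36.0%, 56.3%, 69.6% and 86.3% in the later parts. For peaks away from starts the corresponding shares were 26.2%, 44.2%, 60.9%, 75.4% and 86.9%. The promoter share lay below the distal share in each part, and the gap was smallest in the last. If the GC list is cut to its first 15546 peaks, the length of the Del8 list, 440 promoter peaks or 27.9% were lost.

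**Figure D1:**
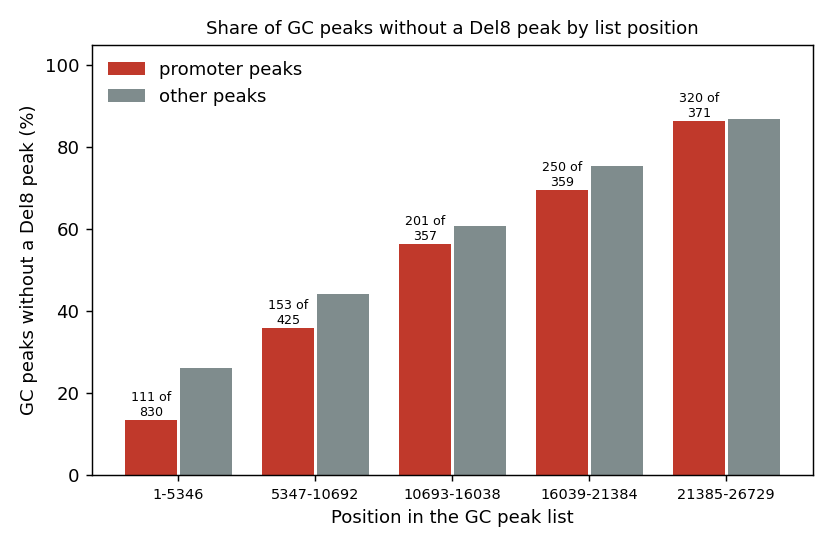
Share of GC peaks without an overlapping Del8 peak (%) in each of 5 equal parts of the GC peak list, for promoter peaks and for all other peaks, with the numbers of lost and all promoter peaks above the bars. The share of promoter peaks lost was 13.4% in the first part and 86.3% in the last.

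Lost peaks were spread more widely around the starts than retained ones. The median distance between peak centre and start was 318 bp for lost and 189 bp for retained peaks, and 21.7% of lost against 30.8% of retained peaks lay within 100 bp of a start. The centre was upstream of the start in 61.7% of lost and 73.2% of retained peaks. Starts on both strands within 1 kb were found at 71 lost peaks (6.86%) and 98 retained peaks (7.5%). In all, 1116 pairs of a lost peak and a gene were formed. Of the genes, 20 had more than 1 lost peak and 33 had a lost and a retained peak. Annotated as protein-coding were 88.1% of genes at lost peaks, 87.4% of those at retained peaks and 83.3% of all genes.

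Most lost promoter peaks had no Del8 peak nearby. The distance from centre to centre to the nearest Del8 peak had a median of 22932 bp, with quartiles of 8166 and 60156 bp. A Del8 peak lay within 500 bp of 17 lost peaks, within 2000 bp of 80 and within 10000 bp of 298 (28.8%), while 147 (14.2%) had none within 100000 bp. For lost peaks away from starts the median was 30866 bp. The 3 nearest were those of Dnlz, a zinc finger cochaperone of mitochondrial Hsp70, at 253 bp, B3glct, a glucosyltransferase, at 287 bp, and Sfr1, a factor of homologous recombination, at 311 bp. The 3 farthest were 2410018L13Rik on chromosome 12 at 1396688 bp, Hmgn5, a nucleosome-binding protein on chromosome X, at 1221528 bp, and Rpgr, a ciliary protein on chromosome X, at 996808 bp. Of these 6 genes, B3glct fell in d8, 2410018L13Rik was too low to test and the others did not pass. Rpgr was the nearest to passing, with 1.9 to 2.95 RPKM in d8 and 3.03 to 4.32 RPKM in GC libraries, which do not overlap, and it did pass when each chromosome was centred in each line.

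**Figure D2:**
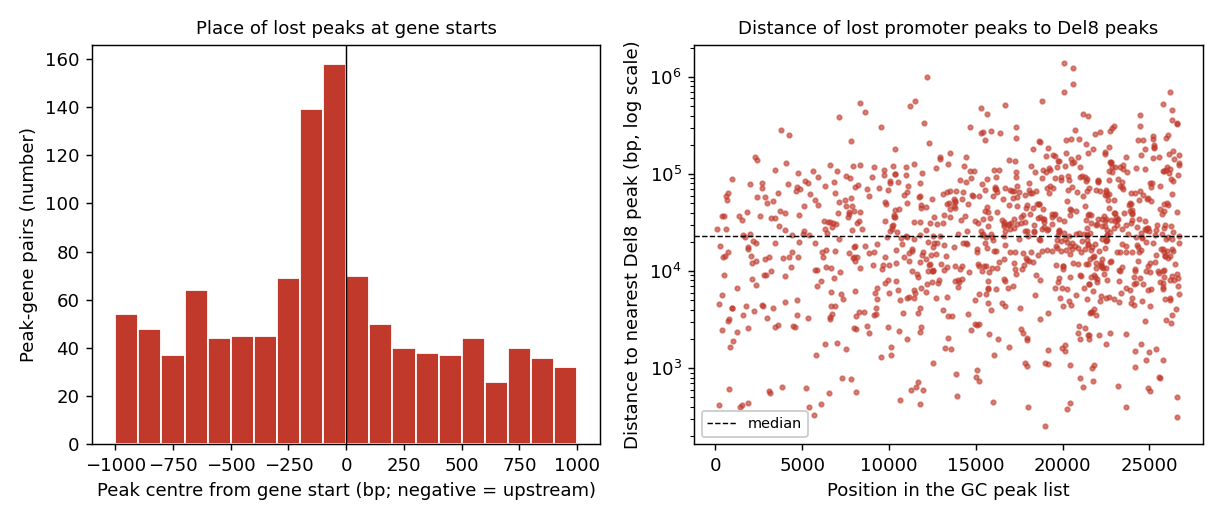
Left, number of pairs of a lost peak and a gene by the distance of the peak centre from the gene start (bp, negative upstream, bins of 100 bp). Right, distance of each lost promoter peak to the nearest Del8 peak (bp, log scale) against its position in the GC list, with the median of 22932 bp as a dashed line. Pairs gather just upstream of the start, and Del8 distances span a wide range at all list positions.

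At the limits of the rule, the lost peaks of Arhgap9, a GTPase-activating protein, and Serpinb1a, an inhibitor of proteases, were 999 and 1000 bp from their starts and counted as members. Those of Sema5b and Smim26, both at 1001 bp, did not. The retained promoter peaks with the smallest overlap were those of Slc26a6, an anion exchanger, sharing 4 bp with a Del8 peak, and Apoo, a subunit of the inner mitochondrial membrane complex, sharing 18 bp.

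Losses were found on all autosomes and chromosome X, from 36.9% of promoter peaks on chromosome 2 to 54.2% on chromosome 13, with 53.3% on chromosome X. Chromosome 11 held 200 promoter peaks, of which 74 or 37.0% were lost. Leaving this chromosome out, 961 of 2142 promoter peaks or 44.9% were lost. Chromosome 11 matters for expression because its genes were lower in d8 as a whole, with a median log2 fold change of -0.40 over 1067 tested genes, against 0 over the genes of the other chromosomes. All fold changes are d8 over GC on the log2(RPKM + 1) scale, which understates the change of low genes.

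Ctcf itself had a lost peak 119 bp downstream of its start (chromosome 8, 105636541 to 105636773, position 8144). Its level was 23.2 to 37.2 RPKM in d8 libraries (median 31.5 RPKM) and 5.58 to 30.8 RPKM in GC libraries (median 14.6 RPKM). The ranges overlapped, because GC line 2 (mean 28.1 RPKM) was close to the d8 lines (means of 28.5, 33.0 and 34.5 RPKM), whereas GC line 1 stood at 5.93 RPKM. The log2 fold change of 1.21 ± 0.53 (SE, adjusted p = 0.19 in limma) did not pass. Reads over the whole gene cannot tell the forms with and without the finger apart, or the fusion from untagged Ctcf. How much of this RNA came from the promoter with the lost peak is therefore not known. Of the other CTCF and cohesin genes examined, 2 had a lost peak. Ctcfl, the testis paralog of CTCF, averaged 0.269 ± 0.0813 RPKM in d8 and 0.162 ± 0.0938 RPKM in GC lines (SD, n = 3 and 2 lines) and was too low to test. Nipbl, the loader of cohesin, averaged 16.7 ± 0.461 RPKM in d8 and 13.7 ± 0.0922 RPKM in GC lines, and did not pass (0.27 ± 0.08 SE on the log2 scale, adjusted p = 0.083 in limma). The libraries of Nipbl did not overlap, with 15.6 to 17.5 RPKM in d8 libraries and 12.1 to 15.0 RPKM in GC libraries.

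Most tested genes at lost promoter peaks did not pass the adjusted threshold, which with 3 d8 and 2 GC lines does not show that they were unchanged. An unadjusted limma p under 0.05 was found for 235 members (32.0%), against 27.8% of all tested genes. Of the 1096 genes, 735 reached a mean of 1 RPKM in either genotype and were tested, 361 stayed under this filter and 42 of these were listed at 0 in all libraries. Among the tested members 27 rose and 50 fell in d8 at a limma adjusted p below 0.05, that is 3.67% and 6.8%, against 3.02% and 5.74% of all 12468 tested genes. Together 77 or 10.5% were called, against 8.76% of all genes. Their median log2 fold change was -0.04, against -0.02 over all genes. Genes at retained promoter peaks were called more often, with 35 higher and 130 lower of 1020 tested (16.2%), and had a median of -0.07. This difference between the classes was not tested. Line means did not overlap between genotypes for 372 members (50.6%), against 46.2% of all tested genes. Members called higher had log2 fold changes of 0.35 to 1.54, and those called lower of -2.39 to -0.31, with 1 at or above 1 and 12 at or below -1.

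These counts rested on the cell lines. Without d8 line 1, 2 or 3 the members called numbered 11, 42 and 4, and without GC line 1 or 2 they numbered 4 and 32. The counts over all genes fell likewise, to 115, 577 and 30 without a d8 line and to 27 and 516 without a GC line. Leaving out d8 library 1C or 2A or GC library 1A left 12, 11 and 16 genes higher. There 7.48%, 7.08% and 8.3% of members were called in either direction, against 5.98%, 5.98% and 7.78% of all genes. In each of the fits without a line or a library all 77 members kept their direction. These fits share most of their libraries with the one that chose the 77.

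Much of the lower side came from chromosome 11. There 21 of 54 tested members fell (38.9%) and none rose at the adjusted threshold, against 36.3% lower over all genes of this chromosome, and 41 of the 54 (75.9%) had an unadjusted p under 0.05, against 66.8% over all genes of the chromosome. The members' median log2 fold change was -0.44 there, against -0.40 for the whole chromosome. On the other chromosomes 27 of 681 tested members rose and 29 fell (3.96% and 4.26%), against 3.28% and 2.89% of all genes tested there, and 6.17% of those were called in either direction. The members' median was -0.02. With chromosome 11 left out of the fit, which also changes the adjustment, 10 members rose and 22 fell (1.47% and 3.23%), against 1.65% and 1.58% of all genes. The 32 genes so called were all among the 56 members called off chromosome 11 before, and the other 24 had adjusted p-values of up to 0.071. Of 909 tested genes at retained peaks off chromosome 11, 3.74% rose and 8.58% fell, and 1.87% and 5.94% with the chromosome left out of the fit. The classes were not tested against each other. When each chromosome was centred in each line, 21 members rose and 28 fell (2.86% and 3.81%), against 2.24% and 2.13% of all genes.

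**Figure D3:**
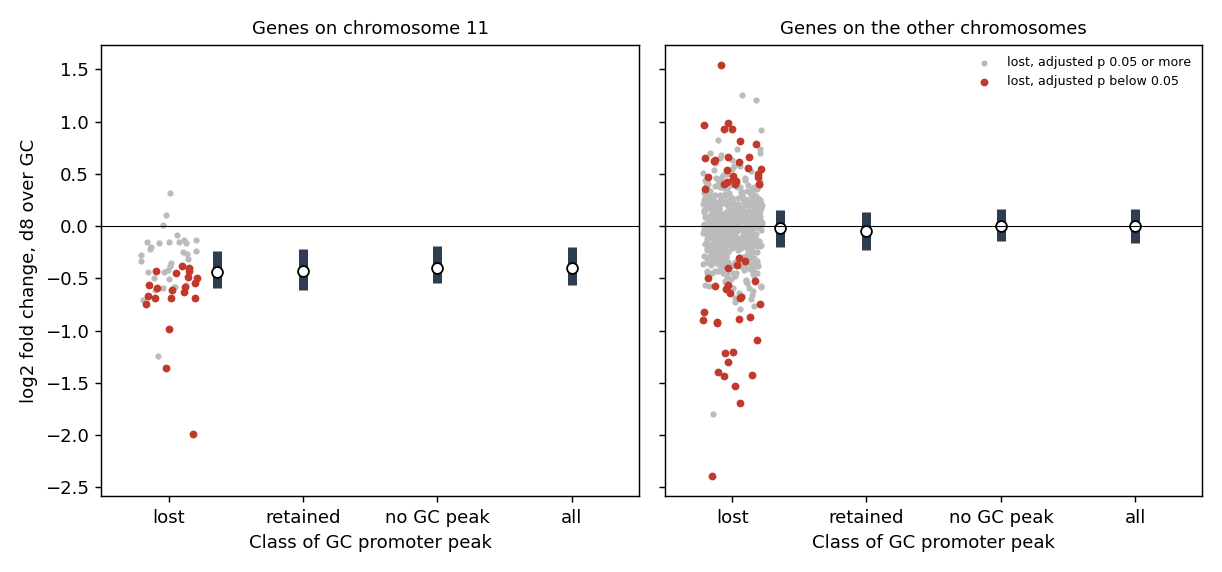
Log2 fold change, d8 over GC, of genes on chromosome 11 (left) and on the other chromosomes (right). Points are the tested genes at lost promoter peaks, red where the adjusted p was below 0.05, and dark bars with white circles give quartiles and medians for genes at lost peaks, at retained peaks, without a GC promoter peak and overall. On chromosome 11 all classes sat near -0.4, and on the other chromosomes near 0.

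The fall was most frequent at lost peaks early in the list. Off chromosome 11, 12 of 81 tested genes at lost peaks of the first part fell (14.8%) and 1 rose, with a median log2 fold change of -0.12. The 81 include the gamma protocadherins Pcdhgb4 to Pcdhgb8, which share exons and are not independent values, and the median without them was not computed. In the second to last parts 6.25%, 4.51%, 1.23% and 1.36% fell, while 4.17%, 3.01%, 3.07% and 5.91% rose. Genes at retained peaks of the first part fell in 10.3% of 544 cases, and in later parts in 5.26%, 5.94%, 11.9% and 0.0%, the last from 31 genes. With chromosome 11 left out of the fit, 9 of the 81 genes at early lost peaks fell and none rose by limma, against 39 and 7 of the 544 at early retained peaks. An unadjusted p under 0.05 was found for 31 of the 81 (38.3%), against 24.3% of all genes in that fit. Whether the trend differs between lost and retained peaks was not tested. The tested genes at early lost peaks had median levels of 8.58 RPKM in d8 and 9.78 RPKM in GC.

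**Figure D4:**
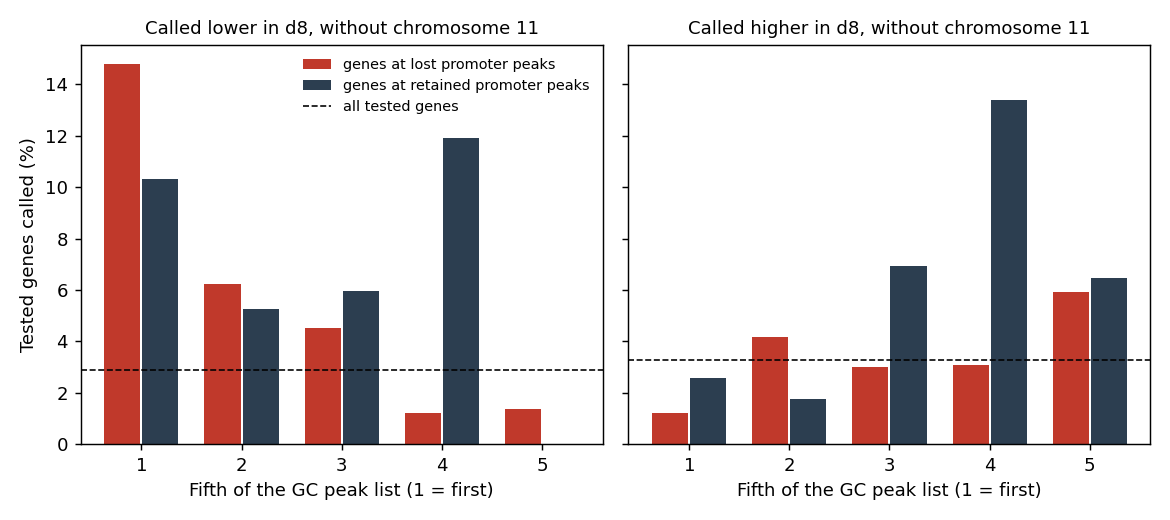
Share of tested genes off chromosome 11 called lower (left) and higher (right) in d8 (%, limma adjusted p below 0.05), by position in 5 equal parts of the GC peak list, for genes at lost and at retained promoter peaks. The dashed line is the share over all tested genes off chromosome 11, 2.89% lower and 3.28% higher. At lost peaks the share called lower was highest in the first part, 14.8%.

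The 10 lost promoter peaks earliest in the list lay at 13 genes. Some of these were too low to test and 3 fell, where 5.74% of all tested genes fell. At the first, position 119 on chromosome 3 (88553529 to 88553761), the peak centre was 71 bp upstream of Ubqln4, which carries ubiquitinated proteins to the proteasome, and 694 bp upstream of the start of Lamtor2, a Ragulator subunit of lysosomal mTORC1 signalling, on the other strand. Ubqln4 had 39.0 to 47.3 RPKM in d8 libraries (median 44.0 RPKM) and 53.8 to 85.5 RPKM in GC libraries (median 58.9 RPKM), without overlap (-0.53 ± 0.11 SE on the log2 scale, adjusted p = 0.036 in limma). It missed the threshold with chromosome 11 left out of the fit. Lamtor2 had 39.6 to 56.7 RPKM in d8 and 54.4 to 66.0 RPKM in GC libraries, which overlap, and did not pass (-0.21 ± 0.08 SE on the log2 scale, adjusted p = 0.14 in limma). Comtd1, a predicted methyltransferase on chromosome 14 at position 204, fell to 0.667 to 1.68 RPKM in d8 libraries (median 1.28 RPKM), against 2.87 to 6.39 RPKM in GC libraries (median 3.95 RPKM). Its log2 fold change was -1.22 ± 0.18 (SE, adjusted p = 0.019 in limma). Fam241b, at position 373 with the peak centre 5 bp from its start, fell to 0.267 to 1.22 RPKM in d8 libraries, against 1.46 to 3.07 RPKM in GC libraries (-0.82 ± 0.14 SE on the log2 scale, adjusted p = 0.026 in limma).

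The other genes of this group did not pass or were too low to test. Adrm1, a ubiquitin receptor of the proteasome, averaged 11.5 ± 0.269 RPKM in d8 and 12.7 ± 0.275 RPKM in GC lines, and Uchl3, a ubiquitin hydrolase, 44.4 ± 0.972 and 40.7 ± 3.86 RPKM in d8 and GC (SD, n = 3 and 2 lines). Mapk1ip1l averaged 35.5 ± 2.25 RPKM in d8 and 38.4 ± 1.19 RPKM in GC lines, and Fitm2, which acts in lipid droplet formation, 3.77 ± 0.544 RPKM in d8 and 4.17 ± 0.530 RPKM in GC lines. The peak at position 222 on chromosome 18 lay between 8030462N17Rik, at 17.2 ± 0.445 RPKM in d8 and 14.9 ± 2.96 RPKM in GC lines, and 4930465K10Rik, at 0.596 ± 0.0986 and 0.501 ± 0.139 RPKM in d8 and GC. Below the filter were also Gm3336, with 0 to 0.122 RPKM in d8 and 0.115 to 0.761 RPKM in GC libraries, Syt7, a calcium sensor of vesicle fusion, with 0.232 to 0.494 RPKM in d8 and 0.383 to 0.851 RPKM in GC libraries, and 2310001K24Rik, which was listed at 0 in all GC libraries and reached 0.153 RPKM in d8. For all of these the d8 and GC libraries overlapped.

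Among members off chromosome 11, Ocrl fell most. This inositol polyphosphate 5-phosphatase gene on chromosome X (47912456 to 47965866) had its lost peak at position 11179, centred 58 bp upstream of the start and 497932 bp from the nearest Del8 peak. It had 0.445 to 0.837 RPKM in d8 libraries (median 0.560 RPKM) and 6.78 to 8.02 RPKM in GC libraries (median 7.28 RPKM). All d8 libraries lay far below all GC libraries, and the log2 fold change was -2.39 ± 0.12 (SE, adjusted p = 0.0014 in limma). With each of the 5 lines left out in turn it stayed past the threshold, with log2 fold changes of -2.43 to -2.35.

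Tex261, whose lost peak at position 1881 on chromosome 6 was 438 bp from a Del8 peak, fell to 3.9 to 6.32 RPKM in d8 libraries, against 12.6 to 17.6 RPKM in GC libraries (-1.43 ± 0.13 SE on the log2 scale, adjusted p = 0.010 in limma). B3glct, which adds glucose to O-fucose on thrombospondin repeats, fell to 0.531 to 1.35 RPKM in d8 libraries, against 2.79 to 5.67 RPKM in GC libraries (-1.40 ± 0.23 SE on the log2 scale, adjusted p = 0.024 in limma). It passed in none of the fits without a line. Tstd3, a protein with a sulfurtransferase domain, had 0.196 to 0.731 RPKM in d8 and 2.32 to 4.53 RPKM in GC libraries, with its peak centred 10 bp from the start. Tbc1d7, a subunit of the TSC complex that restrains mTORC1, had 1.90 to 3.81 RPKM in d8 and 7.40 to 9.46 RPKM in GC libraries, with its peak 963 bp upstream. Their log2 fold changes were -1.44 and -1.30 (limma adjusted p = 0.019 and 0.016), and the libraries of the genotypes did not overlap for either.

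Sfxn3, a mitochondrial carrier of the sideroflexin family, had 0.553 to 1.61 RPKM in d8 libraries and 3.28 to 12.9 RPKM in GC libraries, with the highest GC value in library 1B (-1.53 ± 0.22 SE on the log2 scale, adjusted p = 0.019 in limma). Col1a2, a chain of type I collagen, had 0.050 to 0.494 RPKM in d8 libraries and 1.53 to 11.2 RPKM in GC libraries, with the highest in library 2C (-1.69 ± 0.18 SE on the log2 scale, adjusted p = 0.013 in limma). Beside Col1a2, which is itself one of them, the 6 fibroblast or feeder cell markers summed to 6.76 to 9.49 RPKM in d8 and 15.8 to 47.9 RPKM in GC libraries. Only 1 of the 6, Thy1, was above 1 RPKM in every library, and it overlapped, with 3.52 to 6.2 RPKM in d8 and 2.02 to 6.3 RPKM in GC libraries. Col3a1 and Dcn overlapped as well. Col1a1, with 0.301 to 2.23 RPKM in d8 and 5.82 to 28.0 RPKM in GC libraries, Col1a2 and Postn did not. The part of these markers in the result was not tested. In bulk RNA, fewer cells of a type and less RNA per cell cannot be told apart.

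On chromosome 11, Scrn2, a secernin, had the largest fall. Its lost peak was at position 1580, centred 50 bp upstream of the start (97029786 to 97030018). It had 0.085 to 0.851 RPKM in d8 libraries (median 0.516 RPKM) and 3.96 to 6.63 RPKM in GC libraries (median 4.88 RPKM), without overlap (-1.99 ± 0.15 SE on the log2 scale, adjusted p = 0.0057 in limma). With each chromosome centred in each line it was still -1.60 (SE 0.16). Scrn2 and Ocrl were the 2 of 29 called genes named here that passed with each line left out. Igfbp4, a binding protein of insulin-like growth factors, fell to 1.75 to 3.79 RPKM in d8 libraries, against 6.0 to 11.1 RPKM in GC libraries (log2 fold change -1.36, and -0.96 when centred).

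Other chromosome 11 members did not pass once the shift of the chromosome was taken out. Becn1, the autophagy regulator beclin, chosen after its values were seen for its early list position of 663, had 25.2 to 31.0 RPKM in d8 and 39.1 to 52.8 RPKM in GC libraries (-0.69 ± 0.09 SE on the log2 scale, adjusted p = 0.016 in limma, and -0.30 when centred). The long noncoding 9530068E07Rik is described only by its values, 10.9 to 21.2 RPKM in d8 and 23.5 to 42.9 RPKM in GC libraries (log2 fold change -0.99, and -0.59 when centred). Rnf135, a ubiquitin ligase of RIG-I signalling, had 1.86 to 3.08 RPKM in d8 and 2.87 to 5.62 RPKM in GC libraries, which overlap (log2 fold change -0.75, and -0.36 when centred). After centring, Becn1, 9530068E07Rik and Rnf135 no longer passed. Eif5a, a translation factor of high level, averaged 864 ± 27.3 RPKM in d8 and 1089 ± 89.1 RPKM in GC lines and did not pass, with log2 fold changes of -0.33 and 0.06 without and with centring.

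Of the genes that rose, Nrg2, a neuregulin, that is a ligand of ErbB receptors, on chromosome 18, changed most. It had 1.54 to 4.58 RPKM in d8 libraries (median 2.92 RPKM) and 0.149 to 0.442 RPKM in GC libraries (median 0.260 RPKM). The genotypes did not overlap, and the log2 fold change was 1.54 ± 0.19 (SE, adjusted p = 0.016 in limma). Its lost peak was centred 260 bp upstream of the start, at position 6339 and 75051 bp from a Del8 peak. Mthfd1l, a mitochondrial enzyme of one-carbon metabolism, had 29.1 to 41.0 RPKM in d8 libraries (median 36.6 RPKM) and 14.6 to 26.1 RPKM in GC libraries (median 19.7 RPKM), with its peak at position 26046 centred 2 bp from the start (0.81 ± 0.09 SE on the log2 scale, adjusted p = 0.015 in limma).

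Map3k5, a stress-activated kinase, had 2.22 to 3.93 RPKM in d8 and 0.864 to 1.43 RPKM in GC libraries (0.93 ± 0.15 SE on the log2 scale, adjusted p = 0.024 in limma). Tnfrsf8, the receptor CD30, had 2.39 to 7.75 RPKM in d8 and 1.5 to 2.95 RPKM in GC libraries, which overlap (0.99 ± 0.23 SE on the log2 scale, adjusted p = 0.049 in limma). Cpeb1, which binds mRNA tails, had 5.39 to 12.8 RPKM in d8 and 2.98 to 5.11 RPKM in GC libraries (0.97 ± 0.19 SE on the log2 scale, adjusted p = 0.031 in limma). Cpeb1 and Tnfrsf8 did not pass with chromosome 11 left out of the fit. Map3k5 and Cpeb1 each held a retained promoter peak besides the lost one.

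Further rises were found for Tmem30b, a subunit of lipid flippases, with 3.46 to 6.95 RPKM in d8 and 1.79 to 2.96 RPKM in GC libraries (log2 fold change 0.93). Pm20d2, a dipeptidase, had 4.28 to 6.94 RPKM in d8 and 1.99 to 3.40 RPKM in GC libraries (log2 fold change 0.79). For both the genotypes did not overlap (limma adjusted p = 0.023 and 0.030). Dnm1l, the GTPase of mitochondrial fission, and Xist, the noncoding RNA of X inactivation, were chosen after their values were seen. Dnm1l averaged 72.9 ± 2.05 RPKM in d8 and 57.0 ± 4.13 RPKM in GC lines (0.35 ± 0.07 SE on the log2 scale, adjusted p = 0.037 in limma), with its peak at position 24837. Xist had 0.941 to 1.81 RPKM in d8 and 0.383 to 0.718 RPKM in GC libraries (0.66 ± 0.15 SE on the log2 scale, adjusted p = 0.049 in limma), and reads of its antisense partner Tsix could not be separated from it. Neither passed with chromosome 11 left out of the fit.

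**Figure D5:**
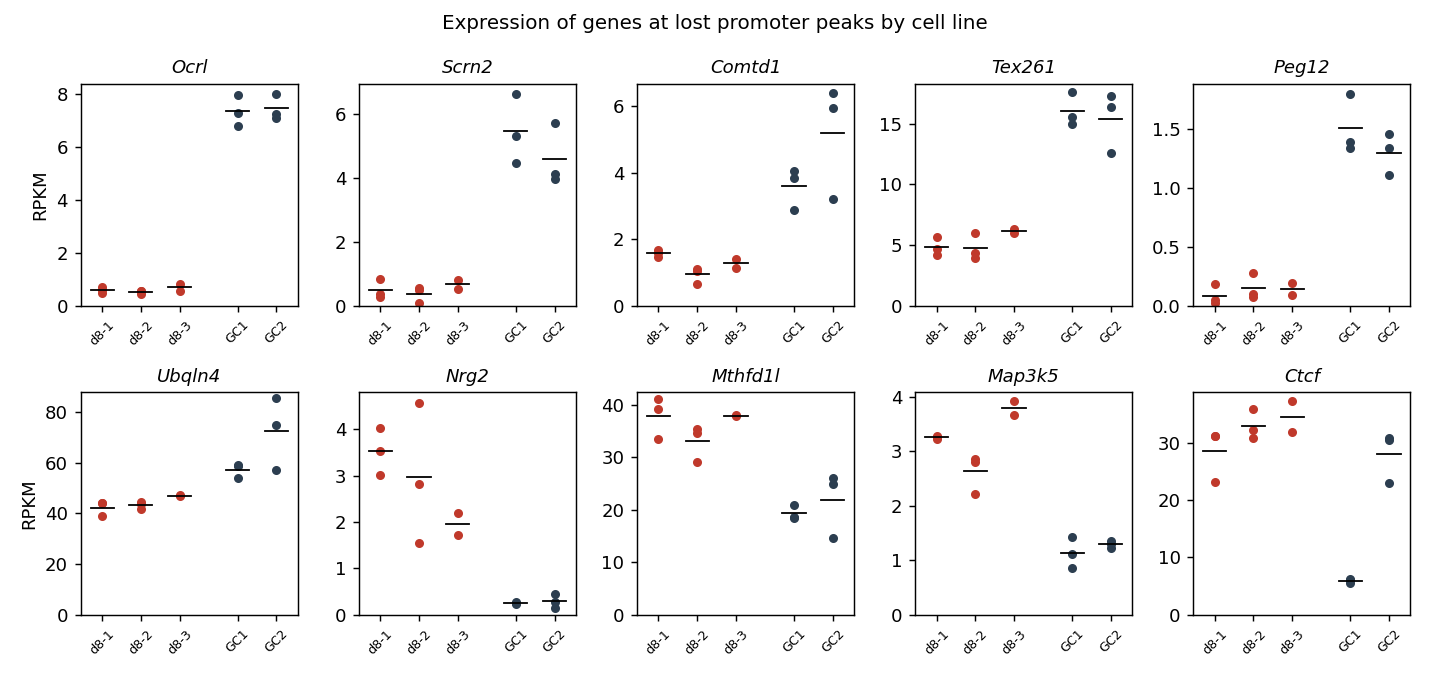
RPKM of 10 genes at lost promoter peaks in each library (points) by cell line, d8 lines in red and GC lines in dark blue, with bars at line means. Ocrl, Scrn2, Comtd1, Tex261, Peg12 and Ubqln4 were lower in all d8 libraries, Nrg2, Mthfd1l and Map3k5 were higher, and Ctcf was low in GC line 1 alone.

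Other members of very high level did not pass the test either. Rps15, a ribosomal protein, averaged 966 ± 59.0 RPKM in d8 and 910 ± 55.4 RPKM in GC lines (SD, n = 3 and 2 lines, limma adjusted p = 0.51). Rps14 averaged 744 ± 71.4 RPKM in d8 and 697 ± 19.9 RPKM in GC lines, and Mir6236 1614 ± 260 RPKM in d8 and 1366 ± 61.2 RPKM in GC lines. By symbol 13 of 106 ribosomal protein genes had a lost peak, one of them the kinase gene Rps6ka5, and all 13 were tested. Of these, only Rpl27, on chromosome 11, fell, to 6.36 to 10.9 RPKM in d8 libraries against 10.9 to 16.5 RPKM in GC libraries (log2 fold change -0.58, and -0.19 when centred, where it did not pass). Ribosomal protein genes have near-identical copies, and how reads were split among these is not known.

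Gene families differed in how many members had a lost peak. They were taken by the start of the gene symbol or from short fixed lists, so genes of like function with other symbols were not counted. Lost promoter peaks were found at 27 of 58 clustered protocadherin genes (46.6%), cell adhesion genes whose promoters are known CTCF sites, and retained ones at 17 (29.3%), against 4.39% and 5.65% of all genes. Of the 27, 14 were tested, all of the gamma cluster, with d8 means of 6.92 to 7.36 RPKM and GC means of 9.15 to 9.78 RPKM. All 14 log2 fold changes lay between -0.37 and -0.33 and none passed (lowest limma adjusted p = 0.36). Gamma transcripts share exons, so these are not 14 independent values. Among respiratory chain genes 9 of 105 had a lost peak, and of these only Cox11, a copper chaperone of cytochrome oxidase on chromosome 11, fell, to 8.23 to 11.0 RPKM in d8 libraries against 12.8 to 17.1 RPKM in GC libraries (log2 fold change -0.61, and -0.21 when centred, where it did not pass).

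In the other families few members passed the adjusted threshold. By symbol, none of 20 tested zinc finger genes, 15 solute carriers, 6 small nucleolar or micro RNA genes, 3 ubiquitin and proteasome genes and 2 mitochondrial ribosomal genes with a lost peak passed in limma. Ubqln4 and Rnf135, which were called above, and Adrm1 and Uchl3 do not carry the symbols counted as ubiquitin and proteasome genes here. An unadjusted p under 0.05 was found for 4 of the zinc finger genes, 2 of the small RNA genes, 1 solute carrier and 1 mitochondrial ribosomal gene, and for 5 of the 9 respiratory chain genes above, against 27.8% of all genes tested. Of 30 listed imprinted genes only Peg12, a paternally expressed gene of the Frat family, had a lost peak, at position 3624 and 181 bp upstream of the start. That is 3.33%, against 4.39% of all genes, and imprinted genes outside the list were not counted. Peg12 fell to 0.024 to 0.282 RPKM in d8 libraries (median 0.095 RPKM), against 1.11 to 1.80 RPKM in GC libraries (median 1.37 RPKM), with a log2 fold change of -1.09 ± 0.13 (SE, adjusted p = 0.015 in limma). Of 16 listed pluripotency genes only Tfcp2l1, a factor of naive pluripotency, had a lost peak, and its libraries overlapped, with 6.91 to 17.1 RPKM in d8 and 4.05 to 18.7 RPKM in GC. No gene whose symbol starts with Hist, no listed germline gene and 1 Hox gene, Hoxd10, had one. The histone variant gene H2afy2, which bears another symbol, did have a lost peak. It averaged 3.23 RPKM in d8 and 6.03 RPKM in GC lines and did not pass (log2 fold change -0.75, limma adjusted p = 0.08). The primitive endoderm factor Gata6, on chromosome 18, had a lost peak 144 bp upstream of its start. It stood at 0.988 to 7.96 RPKM in d8 and 0.176 to 0.577 RPKM in GC libraries without passing the test (1.25 ± 0.34 SE on the log2 scale, adjusted p = 0.072 in limma). The 5 primitive endoderm markers, of which it is one, summed to 8.45 to 41.8 RPKM in d8 and 3.86 to 7.45 RPKM in GC libraries, and their part in its value was not tested.

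At 39 lost peaks 2 genes on opposite strands were tested. At 1 of them both fell, namely Bysl, a factor of ribosome assembly, and Med20, a Mediator subunit, on chromosome 17 (d8 means of 21.2 and 12.3 RPKM, GC means of 32.1 and 16.5 RPKM, limma adjusted p = 0.025 and 0.047). Med20 did not pass with chromosome 11 left out of the fit or with each chromosome centred. At 4 peaks 1 of the 2 genes was called, and at 25 of the 39 both fold changes had the same sign. No such counts were made for other pairs of genes.

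The authors' deposited table of their own comparison lists 1280 genes with log2 fold changes of del8 over control. It holds 106 of the 1096 members (9.67%), 37 higher and 69 lower, against 5.13% of all genes and 11.2% of genes at retained promoter peaks. Of all 1280 genes listed, 664 were higher and 616 lower. Members passed the expression filter used here more often than all genes (67.1% against 50.0%), and the shares listed were not adjusted for this. Of the 77 members called here 32 are in the authors' deposited table, all with the same sign. The same count was not made for all 1092 genes called here, so it does not set the members apart. In the authors' deposited table the log2 fold change was -3.59 for Ocrl, -3.51 for Scrn2, -1.75 for Tex261, 2.97 for Nrg2 and 1.49 for Map3k5. Tfcp2l1, which did not pass here (log2 fold change -0.11), is at -1.43 in the authors' deposited table. The 5 library columns of that table match no sample name here, and which cells served as its control is not given in the sources used here.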

How the data were processed

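Mouse ES cell data of the series comprise 32 samples. RNA-seq values of 14 samples (8 d8, 6 GC) and peak lists of 2 ChIP-seq samples (Del8, GC) were used, and the others were not analysed here. The RPKM values were deposited by the authors for 24940 genes. Per the file headers, HOMER summed reads in the exons of RefSeq transcripts (mm10), without a strand setting, so antisense partners cannot be told apart, and 410 genes had more than 1 copy. Reads were single-end, 50 bp, per the labels' protocols. The tools in the submitters' processing notes, given without versions, are HISAT2, Bowtie, SAMtools, deepTools, HOMER and DESeq2. The notes name mm9 beside mm10. Read totals were estimated from the steps between low RPKM values.

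Peaks were called with HOMER in its factor style, with a false discovery rate of 0.001 and 4-fold over the surrounding 10000 bp, per the file headers, with no control library named there. They are 247 bp (Del8) and 233 bp (GC) wide. Every score deposited by the authors is 1. Coordinates were taken as mm10 and are given 1-based.

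The authors' deposited table gives log2 fold changes with p-values and adjusted p-values, of which only the log2 fold changes were used. Its 5 library columns of no matching sample were not used.

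RPKM values were averaged per line as log2(RPKM + 1) and tested with limma 3.58.1 (R 4.3.3) with a variance trend, two-sided, Benjamini-Hochberg over all 12468 genes whose mean reached 1 RPKM in one genotype or both, threshold 0.05. P-values measure the spread between lines, whose independent origin the labels do not state. Genes were named by list position, size of change (at least 2 RPKM, line means not overlapping, chromosome 11 apart), level, distance limits and membership of gene groups. Values of 2 genes that this rule names are not reported here. Members, lists and tests were chosen with earlier results of these data known. Promoter sequences are from RefSeq GRCm38.p6, without chromosome 18.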

Additional observations from a re-analysis of the deposited data

Results flagged for a closer look

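Single libraries stood apart from the others of their genotype in 10 of 118 groups examined, where chance would flag about 1 in 20. Among d8 libraries these were 4930465K10Rik in library 1A (0.166 RPKM, nearest other 0.524 RPKM), 8030462N17Rik in library 1C (15.3 RPKM, nearest other 16.8 RPKM), Slc26a6 in library 2A (2.42 RPKM, nearest other 1.89 RPKM), Gata6 in library 2B (7.96 RPKM, nearest other 4.04 RPKM) and Ctcf in library 1C (23.2 RPKM, nearest other 30.8 RPKM). Among GC libraries, library 2C was highest for Col1a2 (11.2 RPKM, nearest other 3.66 RPKM) and Serpinb1a (1.29 RPKM, nearest other 0.605 RPKM). GC library 1B was lowest for Uchl3 (31.8 RPKM, nearest other 40 RPKM) and highest for Sfxn3 (12.9 RPKM, nearest other 5.54 RPKM), and GC library 1C was highest for Eif5a (1355 RPKM, nearest other 1099 RPKM). Of these genes, Col1a2 and Sfxn3 were called between genotypes, and for both the d8 and GC libraries did not overlap.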

How the results depend on the processing

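With windows of 500 and 2000 bp around the start, 657 (40.3%) and 1603 (47.7%) promoter peaks were lost. Counting a Del8 peak within 2000 bp as retained left 40.8% lost, and cutting the GC list to the length of the Del8 list left 440 (27.9%). For members called higher and lower, the counts were 0 and 9 without a filter on low values (where 1096 genes were tested), 10 and 22 with chromosome 11 left out, and 12 and 33 or 42 and 76 with windows of 500 or 2000 bp. Without the filter 0.821% of members and 0.341% of all genes were called, and with chromosome 11 left out 4.7% and 3.23%. The windows change only the members, so the share over all genes stayed at 8.76%. Centring each chromosome left 28 lower, and the shorter GC list left 9 higher with a median log2 fold change of -0.11. Fitting libraries singly, with line as a random block, called 60 higher and 125 lower. A replicate block by sample letter called 58 and 108, and one by full sample number 67 and 135. Over all genes these fits called 20.4%, 17.9% and 23.5%. The numbers do not pair the samples, since deviations from line means correlated at -0.158 to 0.306 and those from genotype means at -0.195 to 0.075. Leaving out 1 line or library gave 0 to 39 higher, 3 to 65 lower and medians of -0.06 to -0.02. The called genes named above kept their direction in each alternative that tested them, and 8 of the 29 passed in none of the 5 fits without a line. Leaving out a line leaves 1 GC line or 2 d8 lines, whose spread is assumed to be that of the others. The Del8 list came from fewer tags, and how far this bears on peaks near the threshold was not tested.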
